A study of Homo sapiens with 16 samples.

Results

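A549 is a cell line from a human lung adenocarcinoma, and here it was sampled 1 h after X-rays. The values come from 4 of the 16 arrays of the series, those titled for X-rays at 1 h, replicates 1 to 4. On each array the RNA of an irradiated plate was hybridised together with that of the unirradiated control plate split from the same culture. The X-rays came from a clinical linear accelerator at 6 MV and a dose rate of 3 Gy per min, and the dose is not given in the sources used here. The other 12 arrays, 4 in each group, hold X-rays at 4 h and carbon ions (C12) at 1 h and at 4 h, each against control plates of the same line. RNA of 2 independent experiments had been pooled before labelling, so a culture's own spread is partly averaged out. The arrays hold 18334 named genes as log2 ratios and no signal of a single plate, so the epithelial identity of the line could not be checked from marker levels.

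Ionising radiation breaks DNA, and the kinase ATM then stabilises the transcription factor p53. p53 switches on genes that halt the cell cycle (CDKN1A, GADD45A), genes that end the signal (PPM1D, MDM2), genes of cell death (BBC3, FAS), of DNA repair (DDB2, XPC) and secreted factors (GDF15). In cells where it is intact, this programme is the best known early transcript response to X-rays.

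The direction of every ratio below is a likely one. The irradiated plate carried the red dye Cy5 on replicates 1 and 4 and the green dye Cy3 on replicates 2 and 3. The signs of the deposited ratios follow neither the labelled dye nor a common direction, so replicates 1 and 2 were multiplied by -1. This turning had been chosen, among 4 sign patterns and with values in view, partly because it made the mean of p53 targets positive after X-rays at 1 h and at 4 h. The direction of p53 targets is therefore no finding, and their p-values come after that selection. With the overall sign turned, each rise is a fall of the same size.

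Sign patterns of the deposited ratios were counted as a description. In 308 genes (1.68%) the ratio was larger than 0.5 in size on all 4 arrays, a limit chosen after the values had been seen. As deposited, 236 of them had replicates 1 and 3 on one side of 0 and replicates 2 and 4 on the other, which after turning is the labelled dye of the irradiated plate. The pattern used for the turning, replicates 1 and 2 against 3 and 4, was seen in 15, among them the 6 genes that passed the test below, which restates the choice of that pattern. The same sign on all 4 arrays was seen in 10 genes, and replicates 1 and 4 against 2 and 3, in 3 genes. Turned arrays of the same dye orientation correlated over genes with r = 0.314 (replicates 1 and 4) and 0.071 (2 and 3), and arrays of opposite orientation with r from -0.393 to -0.211. As deposited, replicates 1 and 4 correlated over features with r = -0.314, so the labels do not settle their direction.

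Promoter windows of 3 genes are shown as examples of motif matches, 2 in genes that passed the test and 1 in AEN, whose window alone among those found for the first 25 genes held the p53 half-site. They are the 250 bases before the annotated start, from RefSeq (GRCh38.p14), on the plus strand: chr19:18385908-18386157 for GDF15, chr17:60599943-60600192 for PPM1D and chr15:88621090-88621339 for AEN. Capitals mark the TATA motif TATAAA in GDF15 (29 to 24 bases before the start), the CRE motif TGACGTCA in PPM1D (61 to 54 before) and the p53 half-site decamer in AEN (34 to 25 before).
GDF15: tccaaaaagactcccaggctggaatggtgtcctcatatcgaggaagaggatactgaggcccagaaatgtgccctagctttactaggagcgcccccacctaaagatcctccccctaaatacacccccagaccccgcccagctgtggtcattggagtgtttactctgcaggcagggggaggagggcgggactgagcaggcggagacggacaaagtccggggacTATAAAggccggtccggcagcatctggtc
PPM1D: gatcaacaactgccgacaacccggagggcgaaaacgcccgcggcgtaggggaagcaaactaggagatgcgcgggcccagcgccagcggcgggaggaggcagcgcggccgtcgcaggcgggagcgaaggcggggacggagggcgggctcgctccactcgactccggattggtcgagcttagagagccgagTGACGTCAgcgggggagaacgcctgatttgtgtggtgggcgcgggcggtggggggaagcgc
AEN: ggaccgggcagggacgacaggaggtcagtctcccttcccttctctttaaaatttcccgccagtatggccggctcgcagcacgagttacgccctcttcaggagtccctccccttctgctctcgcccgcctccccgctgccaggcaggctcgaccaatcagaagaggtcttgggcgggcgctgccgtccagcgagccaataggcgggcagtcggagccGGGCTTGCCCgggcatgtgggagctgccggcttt
Both strands of 27303 such windows were searched, where the half-site occurred in 5.53%, TATAAA in 11.1%, TGACGTCA in 1.77%, the AP-1 motif TGANTCA in 6.6% and CCAAT in 33%. Of the 6 genes that passed the test, 5 had a window, and 0 of the 5 held the half-site, 1 held TATAAA, 1 held TGACGTCA, 0 held TGANTCA and 3 held CCAAT. Among the first 25 genes by p, 20 had a window, of which 5 held TATAAA, 1 held TGANTCA (BBC3) and 12 held CCAAT. A match is a string of letters and not a site, and the lack of one says only that these letters are not in this window.

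One hour after X-rays, 6 of 18334 genes rose (0.0327%) and 0 fell, at a Benjamini-Hochberg adjusted p under 0.05 in limma. They were GDF15, PLK3, PPM1D, GADD45A, SERTAD1 and CDKN1A, all of them p53 targets of the lists used here. The lists were chosen with earlier results of these data known, and the sign with p53 targets in view. That all 6 are listed p53 targets is therefore no test. At an unadjusted p under 0.05 there were 261 genes (1.42%), of which 165 were higher (0.9%) and 96 lower (0.524%). All ratios below are log2 of irradiated over control, errors are standard errors with n = 4 arrays, and the spread was estimated together with the 4 X-ray arrays of 4 h.

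GDF15, a secreted stress cytokine of the TGF-beta superfamily (Entrez gene 9518), had ratios of 2.46, 1.34, 1.27 and 1.97 on replicates 1 to 4. Both arrays with the irradiated plate in Cy5 were higher than both with Cy3, and all lay above 0. Its mean was 1.76 ± 0.18, or 3.39-fold (95% interval 2.59 to 4.43, limma adjusted p = 0.00151). Its dye coefficient, estimated from the 8 X-ray arrays, was 0.59 ± 0.13, and without a dye term its adjusted p was 0.062. In RNA of a whole plate, more cells with the transcript and more transcript per cell cannot be told apart.

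The list of cell cycle arrest was the p53 group with the most members past the test: 4 of 9 measured rose. All 9 estimates were positive, as were 50.8% of all genes (median 0.50, against 0.00 over all genes). Membership in the list does not show that a gene halts the cycle, which was not tested. PLK3, a stress-induced polo-like kinase, had ratios of 2.28, 1.49, 1.29 and 1.29. Its mean was 1.59 ± 0.17, 3.01-fold (2.34 to 3.87, limma adjusted p = 0.00151). Replicate 1 stood above the other three, and without it the estimate was 1.36. GADD45A, which binds PCNA and slows the cell cycle after damage, had ratios of 2.64, 1.30, 1.14 and 1.06. Replicate 1 again stood far above the others, which lay close together. Its mean was 1.53 ± 0.21, 2.9-fold (limma adjusted p = 0.0139). Leaving out replicate 2 ended the call (1.57, limma adjusted p = 0.201), and leaving out replicate 1 kept it at 1.16 (0.0296).

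CDKN1A encodes p21, the inhibitor of cyclin-dependent kinases that holds cells in G1. Its ratios of 1.19, 0.91, 1.04 and 0.96 were the averages of 11 array features, whose own estimates ran from 0.78 to 1.09. The 4 arrays thus lay close together, and its mean was 1.02 ± 0.16, 2.03-fold (limma adjusted p = 0.0439). SERTAD1, a transcriptional co-regulator that binds CDK4, had ratios of 1.09, 0.93, 0.95 and 0.80 and a mean of 0.94 ± 0.15 (1.92-fold, limma adjusted p = 0.0439). CDKN1A and SERTAD1 passed in the fit of all arrays but in none of the fits that left out 1 of the 4 arrays of 1 h (limma adjusted p between 0.18 and 0.625 for both). The other genes of the arrest list did not pass. E2F7, a repressor of E2F targets, was at 0.50, PLK2 at 0.40, CCNG1 at 0.26, SFN at 0.23 and RPRM at 0.16.

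**Figure D1:**
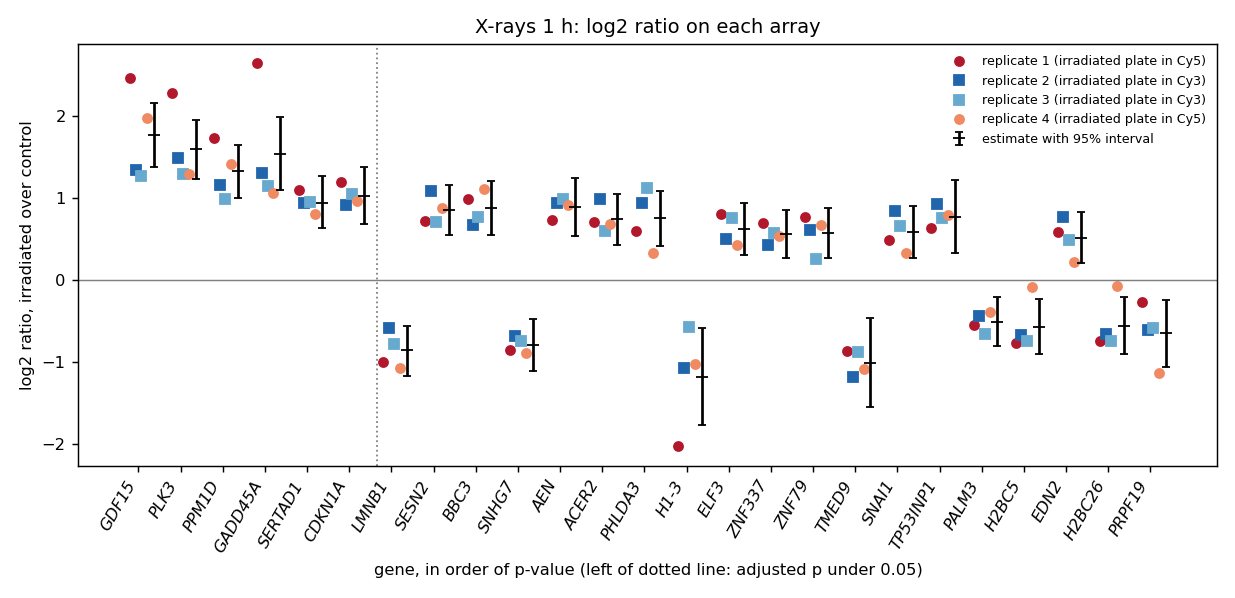
Log2 ratio of irradiated over control (y axis) on each array of X-rays at 1 h for the 25 genes with the smallest p-values, ordered by p along the x axis; symbols and colours give the replicate and the dye of the irradiated plate, and the black bar is the estimate with its 95% interval. The 6 genes left of the dotted line passed the test, and replicate 1 is the highest array for each of them.

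Among the 5 genes that feed back on p53, PPM1D rose and the other four did not pass. PPM1D encodes the phosphatase WIP1, which switches off ATM and p53. Its ratios were 1.73, 1.15, 0.98 and 1.41, with both Cy5 arrays above both Cy3 arrays. The mean was 1.32 ± 0.15, 2.49-fold (95% interval 2 to 3.11, limma adjusted p = 0.00213). MDM2, the ubiquitin ligase that degrades p53, had ratios of -0.19, 0.41, 0.12 and 0.13, on both sides of 0. Its mean over 11 features was 0.12 ± 0.16, with a 95% interval from -0.22 to 0.46. The 11 features ranged from -0.09 to 0.77, and 7 of them were positive. COP1, another p53 ubiquitin ligase, was at 0.13 and RCHY1 at -0.10.

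None of the 14 measured genes of apoptosis passed, although 11 estimates were positive (median 0.13). BBC3, which encodes the BH3-only protein PUMA, had ratios of 0.98, 0.67, 0.77 and 1.11 (0.88 ± 0.15, limma adjusted p = 0.102). Its 3 features disagreed, with estimates of -0.25, 0.94 and 1.96. The feature at 1.96 passed on its own (limma adjusted p = 0.0011), and the gene passed with the median over features (limma adjusted p = 0.0152), in both fits of all 16 arrays (0.0034 and 0.000573), with array weights (0.0349) and without replicate 2 of 4 h (0.0367). AEN, an apoptosis-enhancing nuclease and the gene of the half-site shown above, had even ratios of 0.73, 0.93, 0.98 and 0.91 (0.89 ± 0.17, limma adjusted p = 0.154), and both of its features were positive. TP53INP1, a stress-induced partner of p53, was at 0.77 ± 0.21. The mitochondrial killer BAX was at 0.28, the BH3-only gene PMAIP1 at 0.39, the death receptor gene FAS at 0.32 and TNFRSF10B at 0.15. PERP had the lowest estimate of the group, at -0.35.

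Of the 6 genes of DNA repair, 0 passed and all 6 estimates were positive (median 0.16). The damage recognition genes DDB2 and XPC were at 0.10 and 0.14, the bypass polymerase gene POLH at 0.16, the replication clamp gene PCNA at 0.44 and the ribonucleotide reductase gene RRM2B at 0.41 (95% interval 0.05 to 0.77). DDB2 had ratios of 0.53, -0.38, -0.18 and 0.42. It was above 0 on the Cy5 arrays and below 0 on the Cy3 arrays. XPC had ratios of 0.66, 0.03, 0.36 and -0.47, which did not follow the dye.

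Of the 7 genes of metabolism and redox measured, 0 passed and all 7 were positive (median 0.39). SESN2, a sestrin that restrains the growth kinase mTORC1, had ratios of 0.72, 1.08, 0.71 and 0.88. Its arrays did not overlap 0, yet its mean of 0.85 ± 0.14 did not pass (limma adjusted p = 0.0877). The alkaline ceramidase gene ACER2 was at 0.74 ± 0.15 (limma adjusted p = 0.264) and SESN1 at 0.55 ± 0.17. Among the 8 genes of secreted and signalling products, GDF15 rose. PHLDA3, which blocks AKT at the membrane, was at 0.75 ± 0.16 (limma adjusted p = 0.4), with ratios from 0.33 to 1.12. The remaining members lay between -0.03 (INPP5D) and 0.28 (VWCE).

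In all, 49 of the 53 p53 targets were measured, 6 rose, 43 did not pass and 43 estimates were positive. The ratio was above 0 on all 4 arrays for 18 of the 49, against 3.58% of all genes. Since the sign was chosen with these genes in view, the counts describe them and test nothing. BTG2, PIDD1, GLS2 and FDXR were not analysed here.

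**Figure D2:**
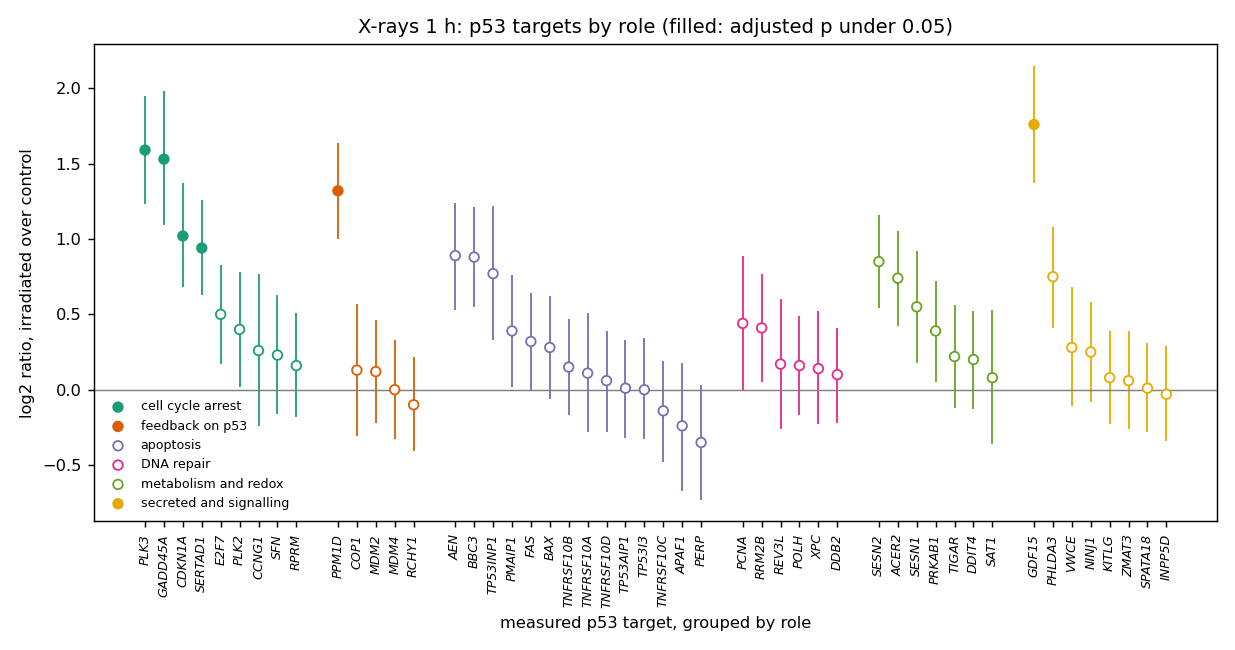
Estimated log2 ratio at 1 h (y axis) with its 95% interval for 49 measured p53 targets, grouped by role along the x axis and ordered by size within a role; filled circles passed the test. The 6 filled circles are 4 genes of the cell cycle arrest list, PPM1D and GDF15, while the repair genes lie between 0.10 and 0.44.

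No gene fell past the threshold. LMNB1, which encodes the nuclear lamina protein lamin B1, was the first of the lower genes, with ratios of -1.0, -0.59, -0.78 and -1.08. All 4 arrays lay below 0, and the mean of -0.86 ± 0.14 (inverse fold 1.82) missed the threshold (limma adjusted p = 0.067). SNHG7, a long noncoding RNA that hosts small nucleolar RNAs, was even across arrays at -0.85, -0.69, -0.74 and -0.89 (-0.80 ± 0.15, limma adjusted p = 0.14). In 18 other settings that kept the direction, LMNB1 fell past the threshold in 4 and SNHG7 in 2. H1-3, a linker histone gene, had ratios of -2.03, -1.08, -0.58 and -1.03. Its mean of -1.18 ± 0.27 was the lowest of all 18334 genes, and the wide spread kept it from passing (limma adjusted p = 0.886). TMED9, a cargo receptor of the early secretory pathway, was at -1.01 ± 0.25, and PRPF19, a ubiquitin ligase of the spliceosome, at -0.65 ± 0.19. PALM3, a paralemmin gene, was at -0.51.

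The remaining higher genes among the first 25 were not past the test. ELF3, an epithelial ETS transcription factor, had ratios from 0.42 to 0.80 (0.62 ± 0.15). The zinc finger genes ZNF337 and ZNF79 were at 0.56 ± 0.14 and 0.57 ± 0.14. EDN2, which encodes the vasoactive peptide endothelin 2, was at 0.51 ± 0.15. SNAI1, the repressor of E-cadherin, was at 0.58 ± 0.15.

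Among genes outside the p53 lists, 0 of the members of any list passed. The 26 immediate early genes, which growth factors and stress induce within minutes, had a median of -0.03. The lowest p-values of this list belonged to the transcription factor gene KLF6, at -0.42 ± 0.14 with all 4 features negative, and the ERK phosphatase gene DUSP6, at -0.53 ± 0.20. Both were below 0 on all 4 arrays, and DUSP6 was at 0.43 at 4 h. FOS was at -0.31, JUN at -0.41, EGR1 at -0.12 and ATF3 at 0.25. The list went both ways, with 12 estimates positive and 14 negative. At an unadjusted limma p under 0.05, 2 of the 26 were higher and 2 lower, against 0.9% and 0.524% of all genes. Of the 18 NF-kB targets, which answer inflammatory signals, the median was -0.02, with TNFAIP3 at -0.31 and IRF1 at 0.26. The 12 interferon-stimulated genes had a median of 0.01, with IFI44 at -0.55 (from -1.92 on replicate 1 to 0.18 on replicate 4) and IFIT2 at 0.13. The 22 genes of double-strand break signalling and repair had a median of 0.04, with PALB2 at 0.32, MDC1 at 0.35 and ATM at 0.08.

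The 18 short-lived regulator transcripts had a median of 0.05, with SNAI1 at 0.58 and KLF4 at 0.24. The 12 ATF4 and unfolded protein response genes had a median of 0.02, with ATF4 itself at 0.23 and CHAC1 at 0.19. Among 12 heat shock genes (median 0.01), HSPA4L was at 0.39 and HSPH1 at 0.36. Of 9 NRF2 targets (median 0.02), SRXN1 was at 0.40 and AKR1B10 at -0.23. The 9 hypoxia genes had a median of 0.02 and ranged from -0.05 (LOX) to 0.08 (ANKRD37).

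No cell cycle or histone gene outside the p53 lists passed at 1 h, and the members went both ways. The 31 genes of G2/M and mitosis had a median of -0.02, with the centromere histone gene CENPA at -0.41, CKS1B at -0.27, CCNB1, the cyclin of mitotic entry, at -0.10 and PLK1 at -0.17. The 25 genes of G1/S and replication had a median of 0.05, and the origin licensing gene CDC6 was the highest at 0.57 (0.75, 0.61, 0.40 and 0.53 on the 4 arrays), followed in p by CDC25A at 0.27. Of 11 replication-dependent histone genes, 8 were negative and 4 were below 0 on all 4 arrays (median -0.23, against 3.14% of all genes below 0 on 4 arrays). H2BC5 and H2BC26 ran side by side (-0.57 and -0.56), each carried by 1 of its 2 features (-0.97 and -0.17 for H2BC5, -1.0 and -0.12 for H2BC26), and since these histone copies are near-identical they are uncertain as separate genes.

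Several lists followed the dye on single arrays. The 13 housekeeping genes had list medians of 0.64, -0.53, -0.58 and 0.46 on replicates 1 to 4, positive with the irradiated plate in Cy5 and negative in Cy3. GAPDH, for example, had ratios of 0.71, -0.76, -0.66 and 0.65 and an estimate of -0.01. This alternation was complete in 8 of 13 housekeeping genes and in 8 of 12 heat shock genes, against 14.3% of all genes, and 12.5% had the inverse one. Each group holds both orientations equally, so it cancels in the group mean with or without a dye term, which changes only the spread and the p-values. Of 13 lung epithelial markers, 9 fibroblast, 6 endothelial and 7 leukocyte markers, 0 passed, with list medians from -0.06 to 0.05. The first by p in these lists were SFTPB (-0.36) and EPCAM (0.25), THY1 (0.20) and ACTA2 (0.18), CDH5 (0.11) and KDR (-0.10), and CD3E (-0.13) and CD68 (0.15).

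**Figure D3:**
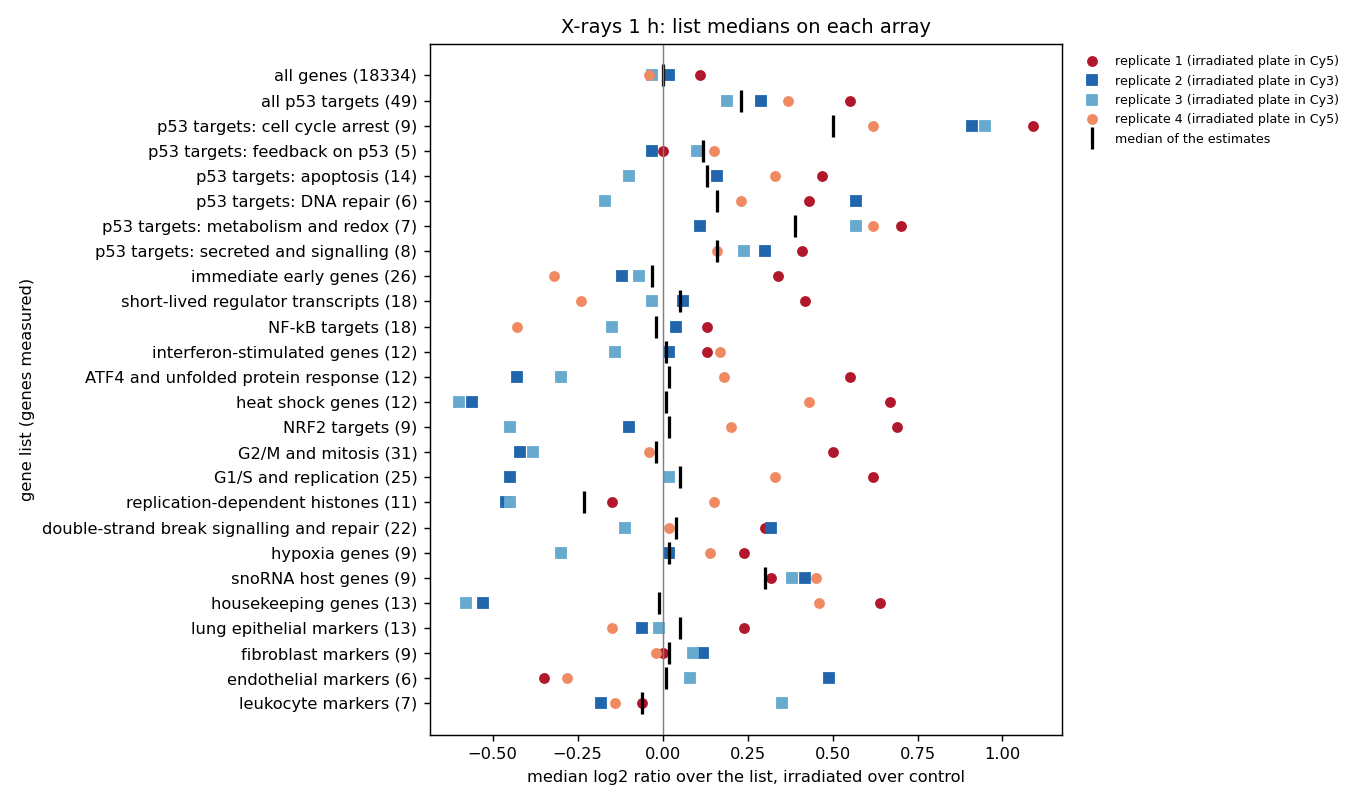
Median log2 ratio over each gene list (x axis) on each of the 4 arrays, with the list and the number of its genes measured on the y axis; circles are arrays with the irradiated plate in Cy5, squares in Cy3, and the black line is the median of the estimates. The medians of housekeeping and heat shock genes split by dye around 0, while the median of the arrest list lies above 0 on all 4 arrays.

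The genes that rose at 1 h were set beside the same genes at 4 h after X-rays. At 4 h, 41 genes were called (0.224%), 38 higher (0.207%) and 3 lower (0.0164%), and all 6 genes of 1 h were among them. GDF15 was at 1.76 at 1 h and 1.74 ± 0.18 at 4 h, and the 4 h minus 1 h difference was -0.02 ± 0.26 (95% interval -0.57 to 0.53). PLK3 was at 1.29 at 4 h (difference -0.30 ± 0.24), PPM1D at 1.07 (-0.25 ± 0.21) and GADD45A at 1.12 (-0.42 ± 0.29). CDKN1A was at 1.45 at 4 h, with a difference of 0.42 ± 0.23. Both groups were in the same fit, and each has its own control plates.

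Over all genes 0 passed the test of 4 h minus 1 h in limma (0%), and 339 (1.85%) had an unadjusted p under 0.05. Of the 49 p53 targets, 21 rose at 4 h, and 15 of these had not passed at 1 h. Of the 15, 7 had a 95% interval at 1 h that included 0. DDB2 was at 0.94 at 4 h (difference 0.84 ± 0.21), XPC at 1.03 (0.88 ± 0.25) and INPP5D, a phosphatase that opposes PI3K signalling, at 0.95 (0.98 ± 0.21). PHLDB3 had the smallest p of the difference, from -0.08 at 1 h to 1.25 at 4 h (1.33 ± 0.24, limma adjusted p = 0.931). Mitotic genes had a median of -0.62 at 4 h, where CKS2, PSRC1 and PLK1 fell.

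SNAI1 was positive on all 4 arrays of 1 h (0.49, 0.84, 0.65 and 0.33) and negative on all 4 of 4 h (-0.26, -0.54, -0.71 and -0.69). The 2 groups thus lie on opposite sides of 0. The difference of -1.12 ± 0.21 did not pass (limma adjusted p = 0.931). DTL, a substrate receptor for p21 degradation measured by 10 features, was at 0.35 at 1 h and -0.50 at 4 h.

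**Figure D4:**
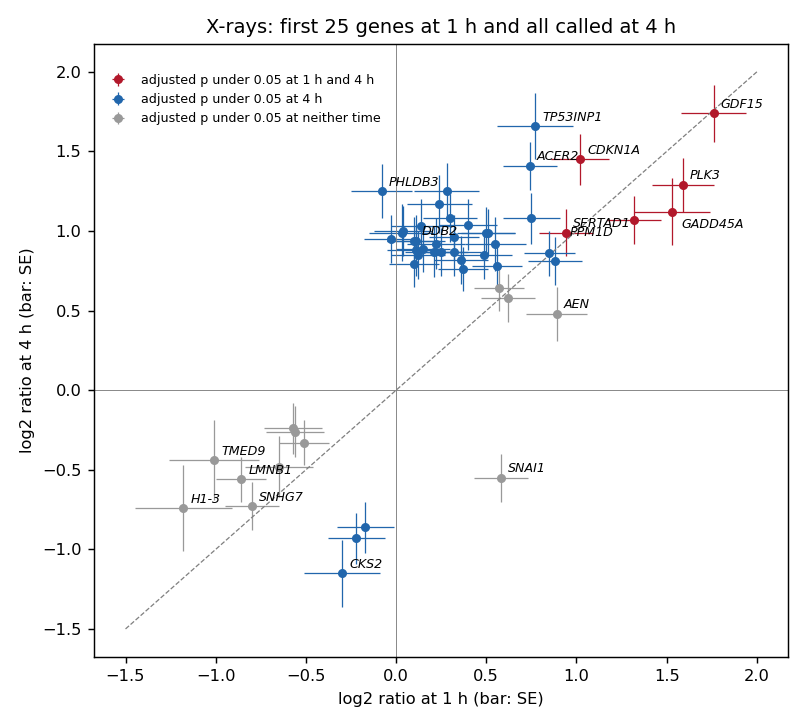
Log2 ratio at 4 h (y axis) against 1 h (x axis) after X-rays, with SE bars, for the first 25 genes of 1 h and all genes called at 4 h; the dashed line marks equal values. The 6 genes called at both times lie along the line, and PHLDB3, DDB2 and many others lie near 0 at 1 h and above 0.7 at 4 h.

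Carbon ions at 1 h offer the other comparison at the same time point, although the doses are not given and cannot be matched. At 1 h after C12, GDF15 had turned ratios of -0.27, 0.52, -0.44 and 0.47, PLK3 had -0.28, 0.27, -0.36 and 0.24, and PPM1D had -0.17, 0.26, -0.32 and 0.17. They alternate by the labelled dye, and none reaches the lowest X-ray array of the same gene. In a fit of all 16 arrays, 6 genes differed between C12 and X-rays at 1 h (0.0327%), and 348 (1.9%) had an unadjusted p under 0.05. C12 minus X-rays was -1.69 ± 0.27 for GDF15 (limma adjusted p = 0.0251), -1.62 ± 0.24 for PLK3 (0.0159) and -1.33 ± 0.19 for PPM1D (0.0159). SERTAD1 (-0.96, 0.0188), SESN2 (-0.84, 0.0409) and LMNB1 (0.97, 0.0159) were the other genes past the threshold. CDKN1A (-0.96, limma adjusted p = 0.0781) and GADD45A (-1.28, 0.209) did not pass.

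This test rests on how the C12 arrays are turned. As deposited, C12 arrays of 1 h with the same labelled dye correlated over genes with r = -0.854 (replicates 1 and 3) and -0.875 (2 and 4), so their direction is not settled either. With the C12 ratios as deposited, or turned by their labelled dye, limma called 0 genes (52 and 48 at an unadjusted p under 0.05). With the C12 arrays turned by the dye labels of the same-numbered X-ray arrays it called 47. There PPM1D (limma adjusted p = 0.0411) and LMNB1 (0.000185) passed. GDF15 (0.0557), PLK3 (0.0523), SERTAD1 (0.0963) and SESN2 (0.0637) did not. With the C12 sign turned as a whole limma called 9, and LMNB1 did not pass (limma adjusted p = 0.08). Leaving out X-ray replicate 1 or 2, or C12 replicate 2, 3 or 4, ended all calls, and 1 or 2 remained without X-ray replicate 3 or C12 replicate 1.

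The sizes of the ratios can be set side by side without their signs, as a description only, since the 6 genes were picked for large and even ratios on these X-ray arrays. For each of the 6 genes the smallest ratio on any X-ray array was larger in size than the largest on any C12 array, for example 1.27 against 0.52 for GDF15, 1.29 against 0.36 for PLK3 and 0.91 against 0.63 for CDKN1A. For GADD45A the gap was narrow, 1.06 against 0.98. The same held for 5.99% of all genes, which were not picked in that way, so nothing is read from the difference. The reverse, all C12 sizes above all X-ray sizes, held for 5.53%. The SD over features was 0.4142 to 0.4143 on every array, so a size is relative to the spread of its own array. LMNB1 overlapped, with 0.59 against 0.76.

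**Figure D5:**
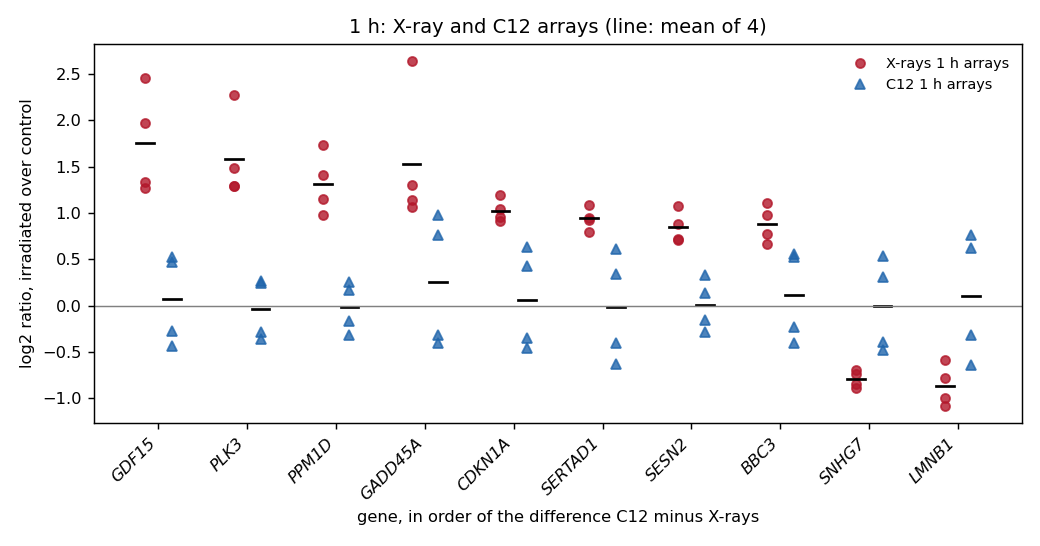
Log2 ratio on each array at 1 h (y axis) for X-rays (circles) and C12 (triangles), for the 10 genes with the smallest p of the difference, with the mean of 4 arrays as a line. For GDF15, PLK3 and PPM1D all X-ray arrays lie above all C12 arrays, which alternate in sign by the labelled dye.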

How the data were processed

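The authors deposited 1 log2 ratio between the dyes per array and feature (45220 features, 0 values missing). limma is named, with no version, in the submitters' processing notes. No source used here gives the background correction, normalization, log base or direction, and base 2, the base limma writes, was assumed. The SD over features was 0.4142 to 0.4143 and the median -0.0415 to -0.0391 on every array. The deposited arrays thus share a common scale, and the step that set it is not described. The signs were turned after that step. The number of arrays limits the precision.

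Features with 1 symbol (31332) were named by the platform annotation, updated through Entrez identifiers for 31291, and averaged into 18334 genes. Features with several symbols (93) were left out, and 13795 unnamed ones were only counted. Replicates 1 and 2 were multiplied by -1. A model of 2 group means and 1 dye coefficient was fitted to the 8 X-ray arrays with lmFit and eBayes in limma 3.58.1 (R 4.3.3, statmod 1.5.0), with 5 residual and 9.4 prior degrees of freedom, and checked on simulated data. C12 minus X-rays used all 16 arrays and 1 dye coefficient per radiation quality. Adjusted p-values follow Benjamini-Hochberg over all genes, with a threshold of 0.05. The exact sign-flip test of 4 arrays cannot go below p = 0.125.

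The genes to be named were those past the threshold, the next by p up to 25, and from each of the 24 lists (331 genes, 311 measured) the members past it, the 2 with the smallest p, the first 3 of each p53 list, and the 10 list members most different between 4 h and 1 h. A few of these with estimates near 0 are not printed. Other genes named were chosen with their values known. The members and lists were chosen with earlier results of these data known. Alternatives covered the arrays in the fit, the dye term, a replicate block, each array left out, feature averaging, normalization, weights and direction. Whether p-values reflect more than the spread of these pooled cultures was not tested.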

Additional observations from a re-analysis of the deposited data

Results flagged for a closer look

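GADD45A on replicate 1 (2.64) lay far from the other three arrays of 1 h. IRF1, an interferon regulatory factor, lay far off on replicate 4 (-0.58, against 0.46 to 0.59 on the others). The histone genes H2BC5 (-0.09) and H2BC26 (-0.08) lay far off on replicate 4 together, and the 2 share near-identical sequence. Among 74 genes examined, chance sets about 1 in 20 apart by this measure.

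C12 minus X-rays at 1 h differed past the threshold for GDF15 (-1.69), PLK3 (-1.62), PPM1D (-1.33), SERTAD1 (-0.96), SESN2 (-0.84) and LMNB1 (0.97), a test that depends on the turning of the C12 arrays. SNAI1 was at 0.58 at 1 h and on the opposite side of 0 on all arrays of 4 h, and the test of that difference did not pass (limma adjusted p = 0.931). Of 13795 features without a gene name, 1 passed in limma at 1 h, and 248 had an unadjusted p under 0.05.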

How the results depend on the processing

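Against 6 genes at 1 h, limma called 16 (14 higher, 2 lower) with all 16 arrays and a dye coefficient per quality. It called 1 (GDF15) with the arrays of 1 h alone, and 3 without the dye term. On leaving out 1 X-ray array it called between 3 and 9: 3 without replicate 2 of 1 h and 9 (8 higher, 1 lower) without replicate 2 of 4 h. As deposited, or turned by the labelled dye, it called 0 (508 and 893 at an unadjusted p under 0.05). In these 2 readings the estimates were -0.14 and -0.11 for GDF15, -0.30 and -0.20 for PLK3, -0.12 and -0.04 for PPM1D, -0.43 and -0.35 for GADD45A, -0.07 and -0.08 for SERTAD1, and -0.02 and -0.09 for CDKN1A. With the overall sign turned they were -1.76, -1.59, -1.32, -1.53, -0.94 and -1.02. A turning by replicates 1 and 3 against 2 and 4, the pattern of 236 of the 308 genes with large ratios, was not fitted. Whether that pattern reflects the dye or the irradiation was not tested. Among the 18 settings that kept the direction, GDF15, PLK3 and PPM1D passed in 17, GADD45A in 16, and SERTAD1 and CDKN1A in 9. Of the next genes by p, BBC3 passed in 5, LMNB1 and SESN2 in 4 and SNHG7 in 2. Deviations from the group mean correlated between same-numbered X-ray arrays of 1 h and 4 h with r from -0.106 to 0.414. These pairs share the labelled dye, and after the dye term r was -0.281, -0.303, 0.0617 and -0.0618 for replicates 1 to 4. The arrays were not paired by number in the fit. With a random replicate block 6 genes were called at 1 h, 0 for 4 h minus 1 h and 7 for C12 minus X-rays. For 4 h minus 1 h, against 0, limma called 3 with all 16 arrays (PHLDB3, SNAI1 and INPP5D) and 0 without any 1 array. For C12 minus X-rays, against 6, it called 2 with the arrays of 1 h alone, 0 with 1 dye coefficient (146 at an unadjusted p under 0.05), and between 0 and 6 without 1 array. The readings of the C12 direction, with counts of 0, 0, 47 and 9, were added after the data had been seen. The cause of these changes was not tested.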

Other observations

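Of 9 snoRNA host genes measured, transcripts whose introns give rise to small nucleolar RNAs, 8 had positive estimates at 1 h and 0 passed (median 0.30, against 0.00 over all genes). SNHG12 had ratios of 0.91, 1.25, 0.38 and 0.42 (0.74 ± 0.24), SNHG15 was at 0.63 ± 0.20 and SNHG8 at 0.55 ± 0.19. SNHG7 lay on the other side of 0. List medians were 0.32, 0.42, 0.38 and 0.45 on the 4 arrays, above 0 in both dye orientations, and the list median at 4 h was -0.04. Reversing the direction would turn these signs as well.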
